A study of Mus musculus with 6 samples.

Results

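The 3 libraries labelled as controls in a series of 6 RNA-seq libraries from mouse brain tumours were described on their own. The labels give the tissue as the brain of a medulloblastoma control model, and the series design names the tumours as WNT medulloblastoma (MB). The other 3 libraries carry the sh2-Ift88 hairpin and were not compared here. The labels state no strain, genotype, driver allele, age or sex for the controls, no control hairpin, and not how the tumours were started. Nor do they tie each library to its own animal, so the spread between libraries may be technical in part. Members were taken by the sample description alone, and no measured value was used to choose them. All values below are listed in the order control 1, control 2, control 3.

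Medulloblastoma is a malignant tumour of the hindbrain, and its WNT subgroup is driven by stabilised beta-catenin. In that pathway a secreted WNT ligand binds a Frizzled receptor, the complex that destroys beta-catenin is switched off, and beta-catenin enters the nucleus and joins TCF and LEF factors on their target genes. Many targets are inhibitors of the pathway itself, and their transcripts are used to recognise WNT tumours. Human WNT medulloblastoma is held to arise from progenitors of the lower rhombic lip and dorsal brainstem, and is known for leaky vessels.

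The label was first set beside 3 transcripts of WNT tumours. Wif1, a secreted inhibitor that binds WNT ligands, took 2358, 1916 and 1664 CPM (gene counts scaled to a library total of 1000000), a mean of 1979 ± 351 (SD, n = 3). In each control it was among the 25 most abundant rows of the table. Axin2, a scaffold of the destruction complex and a direct target of the pathway, took 815, 361 and 446 CPM and was highest in control 1. Lef1, a transcription factor that carries beta-catenin to DNA, took 89.1, 88.9 and 89.5 CPM and was almost even. Transcript levels can be compared between genes only per length, so levels were also computed as TPM, counts per exon base scaled to the same total: the mean level was 2558 TPM for Wif1, 312 TPM for Axin2 and 31.6 TPM for Lef1. Ctnnb1, the gene of beta-catenin itself, took 1440.0, 922 and 931 CPM. All 3 libraries therefore held reads of the WNT markers named for them, with Lef1 at ranks 2366, 2248 and 2458. No tumour of another subgroup was compared, so these values cannot tell the subgroup by themselves.

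The promoters of Wif1 and Axin2, the most abundant markers, are shown with that of Sp5, a WNT target gene whose transcript differed widely among the controls. The sequences are the 250 bases before the annotated start on the + strand, from RefSeq for build GRCm38.p6, at chr10:121033754-121034003, chr11:108920099-108920348 and chr2:70474673-70474922. Capitals mark the letters CTTTGAT, a core that TCF and LEF factors bind, or TATAAA, the TATA box, on either strand (ATCAAAG and TTTATA on the reverse).
Wif1: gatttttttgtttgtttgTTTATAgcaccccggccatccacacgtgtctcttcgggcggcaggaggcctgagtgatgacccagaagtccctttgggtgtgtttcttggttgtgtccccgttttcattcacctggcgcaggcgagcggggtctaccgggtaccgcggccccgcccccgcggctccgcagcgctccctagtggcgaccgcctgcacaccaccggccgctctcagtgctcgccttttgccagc
Axin2: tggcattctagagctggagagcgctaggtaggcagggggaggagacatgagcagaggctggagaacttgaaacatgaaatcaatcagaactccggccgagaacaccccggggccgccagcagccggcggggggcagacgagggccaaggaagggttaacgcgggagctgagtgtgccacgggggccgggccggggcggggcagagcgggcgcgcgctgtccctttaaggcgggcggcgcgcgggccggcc
Sp5: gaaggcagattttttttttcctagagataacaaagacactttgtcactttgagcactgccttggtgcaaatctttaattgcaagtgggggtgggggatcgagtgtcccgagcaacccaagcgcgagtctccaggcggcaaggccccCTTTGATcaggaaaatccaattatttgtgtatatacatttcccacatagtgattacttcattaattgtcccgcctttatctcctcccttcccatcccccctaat
Sp5 held CTTTGAT 104 bases before its start, and Wif1 held TTTATA 232 bases before its start. Neither motif was in the window of Axin2. Over all 27025 gene symbols with a RefSeq promoter of 300 bases, which takes in 50 bases after the start, 3.72% held CTTTGAT and 14.2% held TATAAA on either strand. A list of WNT feedback and target genes had 14 genes that matched a promoter. At the first start listed for each gene, 1 held CTTTGAT and 4 held TATAAA. Some genes had further listed starts: one of Tnfrsf19 held ATCAAAG, and one each of Lef1 and Tcf7 held TTTATA. These matches describe letters in a short window and were not tested as binding sites.

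Gene counts summed to 30965187, 27876540 and 32709246, and 27810 of 34591 gene rows had a count in at least 1 control. At this depth a level of 20 CPM had an exact 95% Poisson interval of 18.4 to 21.6 CPM in control 1, with like intervals in the others, and the limit used for a row with no count was 3 counts, or 0.0917 to 0.108 CPM. These limits cover counting error only. The libraries were not alike, however. Control 2 stood apart in its composition: 15 rows of Gm-numbered gene models, chosen after their values were seen, took 9.71% of its counts against 0.0381% and 0.131% in control 1 and 3, reads outside annotated features were 35.0% of its tallied reads against 18.8% and 25.6%, and 437 of 1097 olfactory receptor rows had a count against 21 and 31. Control 1 stood apart in its low neuronal and glial transcripts, described below, and in Y-linked transcripts. Over 12769 genes with at least 5 CPM in their highest library, Pearson's r of log2(CPM + 1) was 0.872 between control 1 and 2, 0.862 between 2 and 3 and 0.775 between 1 and 3, a description across genes that share their libraries.

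The most abundant named transcripts of the controls included noncoding RNAs, translation factors, cytoskeleton and chaperones, with Wif1 among them. A gene was called high when its CPM ranked in the top 1000 of all 3 libraries, which corresponds to at least 160.4 to 171 CPM. This held for 625 of 27810 detected rows (2.25%). Those top 1000 rows held 54.1%, 54.8% and 51.1% of all gene counts. 7SK, a nuclear RNA that restrains transcription elongation, took 39153, 38654 and 40418 CPM, and RNase_MRP, the RNA of an enzyme that processes ribosomal RNA, took 9087, 9636 and 11093 CPM. Both were even among the controls. Rows without a gene symbol also lay at the top and are not named: 37 of the 625 were such models, and the AC-numbered clone rows together took 75747, 53377 and 47291 CPM. Eef1a1 and Eef2, which carry out translation elongation, took 9687, 5807 and 10157 CPM and 2314, 1956 and 3592 CPM. Actb, cytoplasmic actin, took 3655, 2640.1 and 2571 CPM and Tubb5, a beta-tubulin, 1585, 1455 and 1367 CPM. The chaperones Hsp90ab1 and Hspa8 took 1875, 1421 and 2135 CPM and 1809.8, 1388 and 1639 CPM. Control 2 had the lowest value for both elongation factors and both chaperones.

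Ribosomal protein genes were the group most fully represented: 65 of 84 were high in all 3 libraries, among them Rpl7 at 3102, 1881 and 2172 CPM and Rplp0 at 2248, 1449 and 3240.1 CPM. Together they took 4.98%, 3.23% and 5.95% of gene counts, again least in control 2. Of 71 initiation and elongation factor genes 20 were high, of 47 heat shock and chaperonin genes 17, of 39 hnRNP and splicing genes 19, and of 39 proteasome subunits 4. The share over all detected rows was 2.25%, and those rows include 6132 Gm-numbered gene models, of which 20 were high. Of the 25 rows of the mitochondrial genome 9 were high, and the group took 2.15%, 1.83% and 3.19% of gene counts. Its most abundant rows were mt-Rnr2, a ribosomal RNA at 9012, 7038 and 13905 CPM, and mt-Co1, a subunit of cytochrome oxidase at 6731, 5576 and 9209 CPM.

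**Figure D1:**
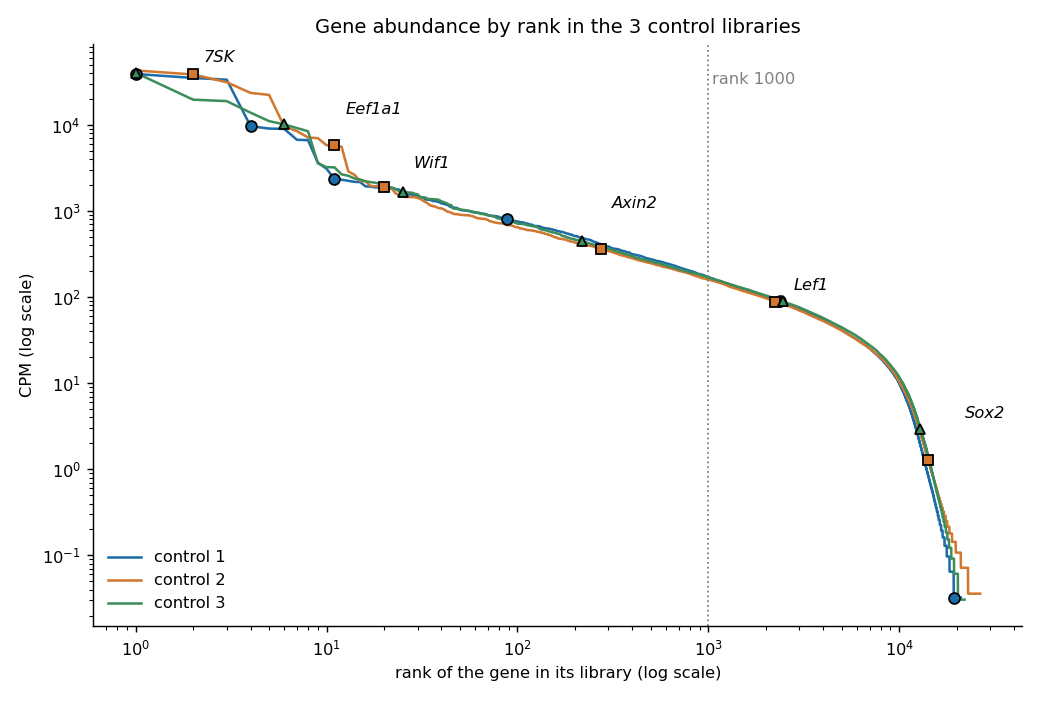
CPM of every gene row against its rank within each control library, both on log scales. Lines show control 1 (blue), 2 (orange) and 3 (green), and markers show 7SK, Eef1a1, Wif1, Axin2, Lef1 and Sox2. Wif1 lies among the top 25 ranks in every library and Lef1 no lower than rank 2458, while Sox2 lies on the steep lower part of the curve, between 0.0323 CPM in control 1 and 2.97 CPM in control 3.

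Cdh11, Nedd4, Malat1 and Ptma were also among the 15 named nuclear genes of best poorest rank. Cdh11, a cadherin of mesenchymal cells, took 1825, 1162 and 3222 CPM and was highest in control 3. Nedd4, a ubiquitin ligase, took 1363, 1457 and 1437 CPM, a mean of 1419 ± 49.4 (SD, n = 3). Malat1, a nuclear long noncoding RNA, took 2187, 2885 and 1456 CPM, and Ptma, a small acidic chromatin protein, took 1606, 1319 and 1877 CPM. Nedd4 was thus even to within 1.07-fold, whereas Cdh11 differed 2.77-fold between its highest and lowest library. Near the threshold for high genes, Numa1 (poorest rank 998), Vhl (998) and Rpl30 (999) lay just inside, and Dmxl1 (1001), Tubb4b (1002) and Aars (1004) just outside.

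Some high genes were nearly constant. Of the 625 high genes 299 (47.8%) differed less than 1.5-fold, and their median highest-to-lowest fold was 1.53, against 1.71 over the 12769 genes with at least 5 CPM. Zfp207, a zinc finger protein of mitosis, took 344, 345 and 349.9 CPM. Trim28, a co-repressor that silences retroviral elements, took 363, 370.1 and 380.3 CPM, and Psme4, a proteasome activator, took 269.8, 268 and 274 CPM. Lamc1, a laminin chain of basement membranes, was as even at 344, 355 and 359.9 CPM. The same held for Eif3c, Rps27, Aplp2, Wdfy3 and Puf60, whose folds lay between 1.04 and 1.05.

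Transcription factors at the top included E-proteins, SP factors, a BMP signal transducer and factors of developmental type. Of 754 transcription factor genes with a count, numbered Zfp genes set apart, 14 (1.86%) were high in all 3 libraries, close to the 2.25% of all rows. Tcf4 and Tcf12, basic helix-loop-helix E-proteins that pair with tissue-specific partners and are not the TCF factors of the WNT pathway, took 742, 900.4 and 642 CPM and 1517, 1222 and 453 CPM. Id3, which binds E-proteins and keeps them from DNA, took 767, 687 and 276 CPM. Control 3 had the lowest value for all of them. Mga, a partner of Max, took 286, 261 and 369 CPM, so that 4 of 91 basic helix-loop-helix genes were high.

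Nfib, a nuclear factor I protein of brain development, took 409, 686 and 426 CPM. Trps1, a GATA-type repressor known from cartilage and hair follicle, took 367, 381 and 1692 CPM. Control 3 was far above the others for Trps1, the only transcription factor among the 14 to differ at least 4-fold (4.61-fold). Ybx1, which binds DNA and RNA through a cold shock domain, took 588, 586 and 327 CPM. Smad5, which transmits BMP signals, took 299, 242 and 249.96 CPM, and Sp1 and Sp3, which bind GC boxes, took 175, 198 and 189 CPM and 284, 327 and 255 CPM. These 3 were even to within 1.28-fold.

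Among the developmental factors, Lhx9, a LIM homeobox protein of dorsal hindbrain and limb, took 218, 399 and 179 CPM and was highest in control 2. Tbx2, a T-box repressor, took 300.05, 215 and 171 CPM. Zbtb20 and Gtf2i took 239.9, 331 and 265 CPM and 184, 188 and 247 CPM, and Tead2, a partner of YAP, lay just outside the threshold at 168, 172 and 177 CPM. Ranked per length, 702 of 26046 rows (2.7%) and 6 transcription factors were in the top 1000 of all 3 libraries. Those 6 were Id3 (1009 TPM), Ybx1 (617 TPM), Id1, Atf4, Sp3 (182 TPM) and Tbx2 (198 TPM). Tcf4, first by its poorest CPM rank, had a mean level of 86.4 TPM over 27382 exon bases. The order of transcription factors by CPM is therefore an order of reads, not of transcripts.

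Secreted protein genes at the top were led by Wif1 and by extracellular matrix. Of 738 secreted protein genes with a count, 25 (3.39%) were high in all 3 libraries, against 2.25% of all rows. The 25 held 12 of 100 laminins, matrix glycoproteins and proteoglycans and 4 of 43 collagens, but 1 of 38 WNT ligands and modulators, which was Wif1. Col3a1, a fibrillar collagen, took 878, 1819 and 2669 CPM and was highest in control 3. Col5a2, which sets fibril diameter, took 714, 1274 and 707 CPM, and Fbn2, a microfibril protein of the embryo, took 669, 1500.4 and 709 CPM, both highest in control 2. Basement membrane chains were steadier: Col4a1 took 403, 569.5 and 396 CPM and Lamb1 281, 387 and 348 CPM. Fn1, fibronectin, took 301, 283 and 256 CPM.

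Sparc, a collagen-binding glycoprotein, took 1037, 1143 and 414 CPM, Serpinh1, the collagen chaperone of the secretory pathway, 755, 498 and 394 CPM, and Fstl1, a BMP antagonist, 1108, 718 and 495 CPM. All 3 were lowest in control 3. In control 3 Sparc was 2.76-fold below its highest library. Ltbp1, which holds latent TGF-beta in the matrix, took 638, 409 and 505 CPM and Igfbp2, a carrier of insulin-like growth factors, took 405, 613 and 311 CPM. Psap, the precursor of saposins, took 273, 440.2 and 431 CPM and Apoe, a lipid carrier, took 289, 243 and 412 CPM. Per length 19 secreted protein genes were in the top 1000 of all 3, where Wif1 (2558 TPM) stood above Igfbp2 (741 TPM), Sparc (711 TPM), Serpinh1 (709 TPM) and Col3a1 (561 TPM). Wif1 was at 2124 TPM or more in each control, and these others were at 1032 TPM or less in each.

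**Figure D2:**
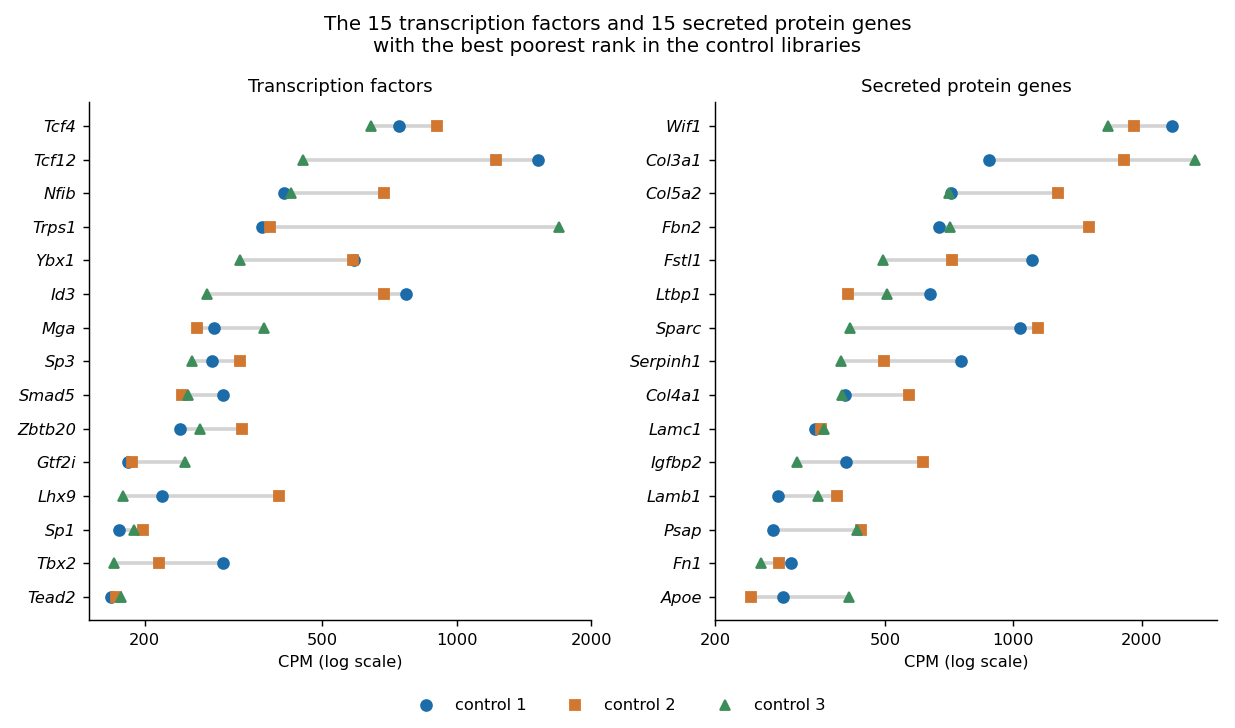
CPM on a log scale in control 1 (blue circles), 2 (orange squares) and 3 (green triangles) for the 15 transcription factors and the 15 secreted protein genes with the best poorest rank, with a grey line from lowest to highest. Trps1 stands out by its value of 1692 CPM in control 3, and of the secreted protein genes plotted Wif1 is the highest in control 1 and 2, while Col3a1 passes it in control 3.

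The share of genes that differed among the controls was not the same in each class of gene. Of 12769 genes with at least 5 CPM in the highest library, 1775 (13.9%) differed at least 4-fold between highest and lowest, 924 (7.24%) at least 10-fold and 414 (3.24%) at least 50-fold. A library with fewer than 3 counts was set to 3 counts, so such folds are lower bounds. Of 352 secreted protein genes at this level 178 (50.6%) differed, and their median fold was 4.22. For transcription factors it was 94 of 441 (21.3%), with a median of 1.93, and for numbered Zfp genes 10 of 315 (3.17%), with a median of 1.43. The share was higher for secreted protein genes and lower for Zfp genes than for all genes with each library left out in turn as well: without control 1 the shares were 5.31% of all genes, 24.2% of secreted protein genes, 10.3% of transcription factors and 0.647% of Zfp genes. Without control 2 they were 11.2%, 38.5%, 15.2% and 1.94%, and without control 3 they were 6.03%, 25.8%, 8.94% and 1.62%. Leaving out control 1 or control 3 thus lowered the count of differing genes from 1775 to 663 and 735.

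Each differing gene was assigned to the library that stood farther from the middle one. Control 1 was the low library for 719 of the 1775 (40.5%) and the high one for 257 (14.5%). Control 3 was low for 327 (18.4%) and high for 254 (14.3%), and control 2 was high for 146 (8.23%) and low for 72 (4.06%). Low in control 1 was thus the most frequent pattern. It was also the most frequent among the 178 secreted protein genes (53) and the 94 transcription factors (26), but at smaller shares than 40.5%. The next most frequent was low in control 3 for secreted protein genes (42) and high in control 3 for transcription factors (23).

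The 6 genes that set control 1 lowest are known from neurons and astrocytes. Gpm6a, a neuronal membrane protein, took 0.0646, 48.5 and 159 CPM, and Aqp4, the water channel of astrocyte endfeet, took 0.161, 51.5 and 163 CPM. Rgs8, a Purkinje cell regulator of G proteins, took 0.129, 29.6 and 104 CPM and Gabra6, a GABA-A receptor subunit of cerebellar granule neurons, took 0, 19.1 and 95.6 CPM, with no count in control 1. The potassium channels Kcna1 and Kcnd2 took 0.0969, 21.1 and 54.5 CPM and 0.0969, 18.7 and 44.2 CPM. All 6 were highest in control 3. Among transcription factors Neurod1 (0.0646, 6.46 and 27.8 CPM) and St18 (0.129, 8.36 and 26.3 CPM) followed the same order. So did the secreted proteins Cbln1, a synapse organiser of granule neurons (0.226, 15.5 and 50.9 CPM), Reln, the guidance protein reelin (0.129, 18.8 and 72.6 CPM), Scg5, Spock1 and Timp4.

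The sums of brain cell marker lists followed the same order, though not every member did. Of 17 mature neuron genes with at least 5 CPM, 14 differed at least 4-fold (82.4%, against 13.9% of all genes). Of the 17, 15 were lowest in control 1 and 16 highest in control 3. The shares of all genes lowest or highest in each library were not counted, so these counts have no background. Their list summed to 104, 292 and 819 CPM. Snap25, a synaptic fusion protein, took 0.581, 75.0 and 246 CPM, whereas Stmn2 took 42.9, 9.69 and 75.9 CPM and Tubb3 20.9, 20.9 and 9.63 CPM. Granule neuron genes summed to 83.9, 350.0 and 873 CPM (11 of 14 differed, 78.6%). Purkinje cell genes summed to 476, 831 and 1509 CPM (9 of 11 differed, 81.8%), in which Itpr1, also found outside Purkinje cells, took 364, 599 and 918 CPM. Astrocyte genes summed to 408, 772 and 1175 CPM (9 of 12 differed, 75%), with Gfap at 0.420, 79.1 and 232 CPM. Gja1, a gap junction protein, went against that order at 276, 259.9 and 153 CPM and made up most of the astrocyte sum in control 1, and Sox9 was also lowest in control 3. In bulk tissue, fewer cells of a type and less RNA per cell cannot be told apart. Oligodendrocyte genes summed to 397, 468 and 951 CPM, of which Pdgfra, which fibroblasts also express, took 365, 313 and 596 CPM, while Mbp, a myelin protein, took 1.19, 35.7 and 109.7 CPM. Brain cell genes such as Snap25, Gfap and Mbp are themselves among the 719 genes low in control 1, and the part of such genes in that count was not tested.

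Genes high in control 1 alone included those of the Y chromosome. Ddx3y took 75.5, 0.0359 and 0 CPM, Uty 40.5, 0 and 0 CPM, Eif2s3y 31.8, 0.0717 and 0 CPM and Kdm5d 27.1, 0 and 0 CPM. Xist, the RNA that silences an X chromosome, took 11.1, 58.9 and 113 CPM. Y-linked reads were thus at or near 0 in control 2 and 3, whereas Xist had reads in all 3 libraries. Krt23, an epithelial keratin, took 104, 0.538 and 0 CPM and Lypd2 20.5, 0.323 and 0.0306 CPM, both nearly confined to control 1 among these 3 libraries.

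Genes high in control 2 alone included Pi15, a protease inhibitor (6.91, 198 and 0.764 CPM), Prss12, a neuronal serine protease (0.581, 49.4 and 1.56 CPM), Lrp2, an endocytic receptor (0.937, 27.1 and 0.642 CPM), Kcnj13, a potassium channel of choroid plexus (1.13, 25.5 and 0.245 CPM), and Tshr, the thyrotropin receptor. Genes low in control 2 alone were Tnfrsf11b, the decoy receptor osteoprotegerin (279, 3.66 and 254 CPM), Prph, an intermediate filament of peripheral neurons (454, 6.42 and 159 CPM), Adh7, Dnahc8, and 2 genes of class II antigen presentation, H2-Eb1 (24.3, 0.574 and 14.2 CPM) and Cd74 (48.5, 1.69 and 39.7 CPM). Of 17 microglia and macrophage genes with at least 5 CPM, 4 were lowest in control 2 and 13 in control 1. The shares of all genes lowest in each library were not counted. Of these 17, 2 differed at least 4-fold (11.8%, near the 13.9% of all genes), and the list summed to 365, 411 and 549 CPM.

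Genes high in control 3 alone included Ibsp, the bone matrix protein bone sialoprotein, at 0.0646, 0 and 40.1 CPM. Pcolce2, which enhances collagen processing, took 0.0646, 0.430 and 33.6 CPM and Tnmd, tenomodulin of tendon, 0.517, 0.897 and 37.5 CPM. Bcl11a, a zinc finger factor, took 0.355, 0.646 and 44.4 CPM and Crabp1, a retinoic acid carrier, 0.194, 0.969 and 27.5 CPM. Kcne4, a potassium channel subunit, took 0.388, 1.26 and 49.3 CPM. All 6 were at or below 1.26 CPM in control 1 and 2. Among transcription factors Cebpa, a bZIP factor of adipocytes and myeloid cells, took 4.59, 9.61 and 124 CPM. The cartilage and bone list summed to 233, 234 and 239 CPM, but its members went different ways. Of 6 with at least 5 CPM, 3 differed at least 4-fold (50%, against 13.9% of all genes). Col9a1, a cartilage collagen, took 0.807, 0.574 and 9.02 CPM and was highest in control 3 like Ibsp, whereas Sox9, the factor of cartilage, took 31.4, 118 and 14.98 CPM and was highest in control 2. Bone genes of that list were Runx2, the master factor of bone, at 53.3, 49.5 and 96.4 CPM, Sp7, which acts after it, at 36.4, 19.4 and 27.2 CPM and Alpl, alkaline phosphatase, at 109.7, 43.1 and 50.1 CPM, the last highest in control 1. The promoter of Ibsp is shown because its transcript had the largest ratio of a gene high in control 3 alone; it lies at chr5:104299037-104299286 on the + strand of GRCm38.p6, and the capitals mark a TTTATA 28 bases before the start.
Ibsp: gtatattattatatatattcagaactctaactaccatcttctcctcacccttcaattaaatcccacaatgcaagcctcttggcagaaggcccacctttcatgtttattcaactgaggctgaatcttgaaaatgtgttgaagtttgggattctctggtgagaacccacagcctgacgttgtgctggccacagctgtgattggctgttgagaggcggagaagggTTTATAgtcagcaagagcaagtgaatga
Of the genes that differed at least 4-fold, 1256 matched a promoter, and 9.16% of those held TATAAA on either strand, against 6.82% of 9634 promoters of genes with at least 5 CPM and 9.21% of the 456 of high genes.

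Genes low in control 3 alone were led by Dct, an enzyme of melanin synthesis, at 35.5, 410.4 and 0.245 CPM. Edar, the ectodysplasin receptor, took 69.2, 37.0 and 0.367 CPM and Sostdc1, a secreted antagonist of BMP and WNT, took 48.2, 21.02 and 0.611 CPM. Otop3, Ano5 and Mrvi1 were likewise below 1 CPM in control 3 and above 20 CPM in the others. Tyr, the enzyme that defines melanocytes, was at 0.0323, 0.287 and 0.0917 CPM. Otx2, a homeobox factor of the forebrain, midbrain and choroid plexus, took 359, 471 and 38.7 CPM, and the choroid plexus transporter Ttr took 0.129, 0.215 and 0.0611 CPM. The SP factors Sp5 and Sp6 were highest in control 1 and lowest in control 3, with 151, 57.0 and 3.33 CPM and 174, 11.4 and 2.08 CPM.

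**Figure D3:**
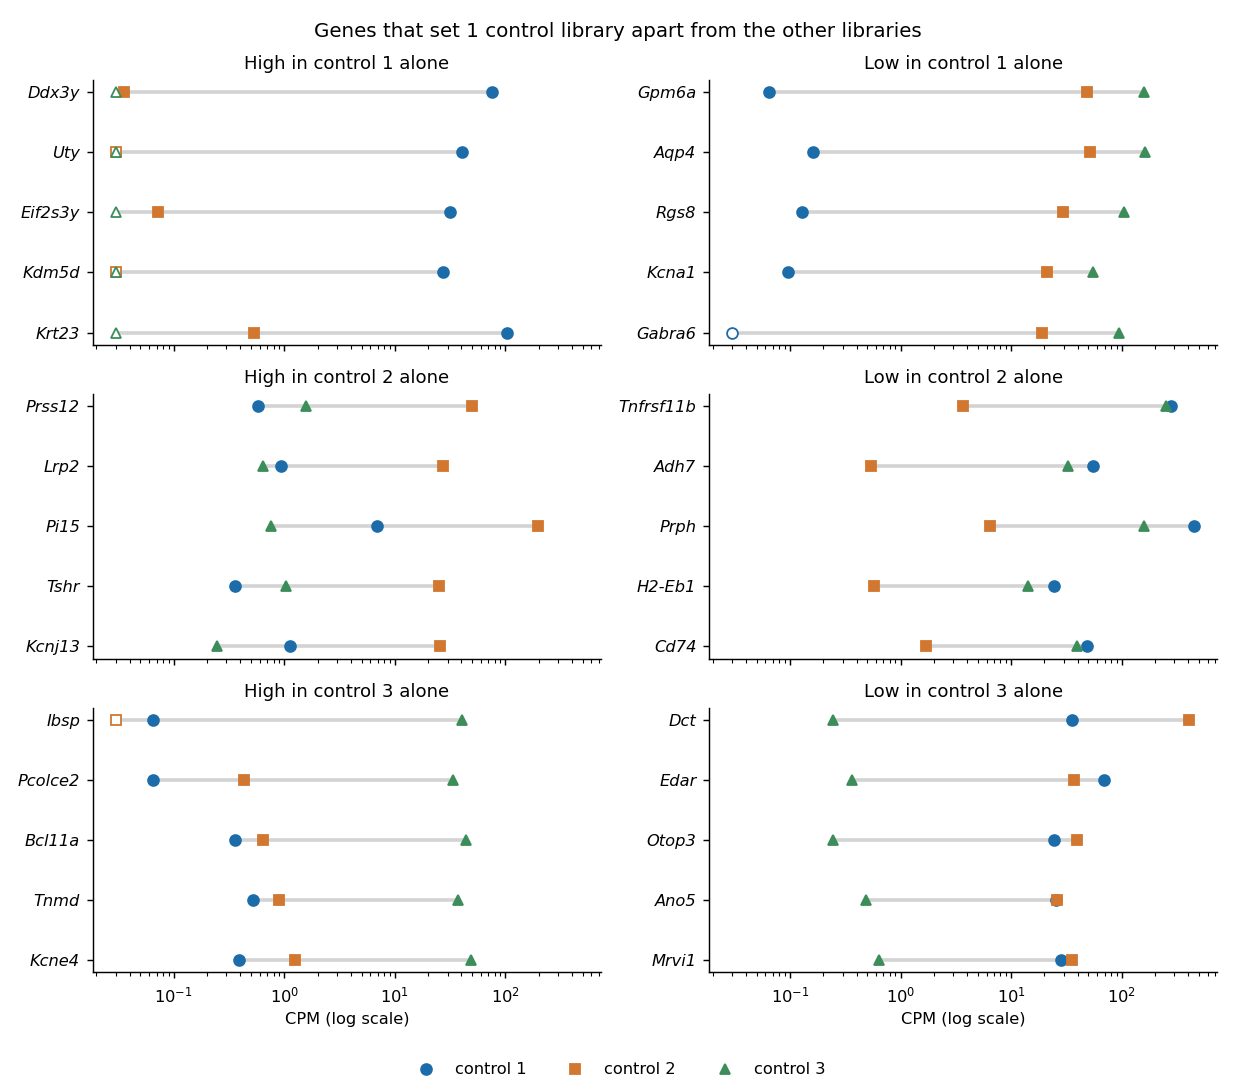
CPM on a log scale for the 5 genes highest and the 5 genes lowest in each control library alone (blue circles control 1, orange squares control 2, green triangles control 3). Open symbols at the left edge stand for 0 counts. Genes low in control 1 alone lie highest in control 3 with control 2 between, and the Y-linked genes of the first panel have reads almost only in control 1.

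Of the 625 high genes, 10 (1.6%) differed at least 4-fold, 2 of them Gm-numbered gene models. Tmsb4x, an actin-binding peptide encoded on the X chromosome, took 1778, 430.3 and 204 CPM. Glul, glutamine synthetase and a known WNT target in liver, took 1308, 300.5 and 462 CPM. Calcrl, the receptor of adrenomedullin and CGRP, took 1561, 2231 and 381 CPM, Rdh10, which makes retinal, 1307, 1077 and 265 CPM, and Mybpc1 1066, 906 and 180.5 CPM, all lowest in control 3. Vcan, the proteoglycan versican, took 362, 919 and 194 CPM and Cpe, a neuropeptide-processing enzyme, 512, 232 and 1293 CPM. With Trps1 these are all the named genes of that set. Several abundant genes outside it spanned a wider range, chosen here after their values were seen: A2m, a protease inhibitor, took 1558, 296 and 19.7 CPM, Crym, a thyroid hormone binding protein, 1453, 409 and 15.6 CPM, and Plat, tissue plasminogen activator, 1355, 218 and 111 CPM. Dcn and Postn, matrix proteins of fibroblasts, took 1215, 1543 and 99.4 CPM and 448, 467 and 19.8 CPM. All 5 were lowest in control 3.

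Some feedback inhibitors and targets of the WNT pathway were abundant and others nearly absent. Of 24 rows of the feedback and target list, 5 were high in all 3 libraries, beside 2.25% of all rows, and 5 were under 1 CPM in every control. Of the 18 with at least 5 CPM, 4 differed at least 4-fold (22.2%, median fold 2.66, against 13.9% and 1.71 over all genes). The list summed to 8123, 4834 and 5825 CPM, so control 1 had the most. Apcdd1, a membrane inhibitor of the receptor, took 1104, 395 and 1339.5 CPM and Nkd1, which antagonises Dishevelled, 934, 290.4 and 371 CPM. Tnfrsf19, a receptor of the TNF family and WNT target, took 664, 722 and 557 CPM and was the steadiest of the abundant members. Control 2 was lowest for both inhibitors, and Tnfrsf19 differed only 1.30-fold.

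Notum, an enzyme that strips the lipid from WNT ligands, took 415, 154 and 238 CPM. Rnf43 and Znrf3, ubiquitin ligases that remove Frizzled receptors, took 114, 51.3 and 16.2 CPM and 97.2, 60.7 and 93.7 CPM. Tcf7, a TCF factor, took 102, 67.7 and 87.3 CPM and Ccnd1, cyclin D1, 201, 111 and 114 CPM. Rnf43 was 7.05-fold higher in control 1 than in control 3, whereas Znrf3 differed by at most 1.60-fold. The DKK inhibitors of the LRP co-receptor were uneven: Dkk2 took 43.1, 8.18 and 109 CPM, Dkk3, which is divergent in function, 509, 281 and 145 CPM, Dkk1 0.0323, 0.682 and 2.81 CPM and Dkk4 0.161, 0.0359 and 0 CPM. Lgr5, a receptor of R-spondin, took 0.226, 3.69 and 7.86 CPM, and Sp8, Fgf20, Cdx1 and Cdx2 were at or below 0.179 CPM in each control. These members, used as WNT targets elsewhere, were low in all 3 libraries.

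Of a list of 25 genes known from WNT medulloblastoma, 4 were high in all 3 libraries, beside 2.25% of all rows, and 20 had at least 5 CPM. Of the 20, 4 differed at least 4-fold (20%, against 13.9% of all genes). Fzd10, a Frizzled receptor, took 72.9, 58.1 and 104 CPM and Epha7, an ephrin receptor, 14.0, 33.2 and 21.1 CPM. Ambn had no count in any control, and Alk and Rassf10 were at or below 0.251 CPM. WNT ligands and modulators differed in 14 of 21 genes with at least 5 CPM (66.7%). That share was 50.6% over all secreted protein genes, 69.0% for guidance and adhesion cues and 66.7% for neuropeptides and hormones. Wnt5a, a ligand of the noncanonical branch, took 389, 151 and 58.9 CPM, Wnt6 276, 36.2 and 14.1 CPM and Wnt10a 86.3, 15.5 and 25.3 CPM, each highest in control 1. Rspo3, which raises WNT signals at the receptor, took 15.4, 6.74 and 54.8 CPM and was highest in control 3.

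Genes of the assumed tissue of origin were mostly low. Sox2, a factor of neural progenitors, took 0.0323, 1.29 and 2.97 CPM, and Olig3 and Atoh1, which mark the rhombic lip, both took 0, 0.0359 and 0 CPM. Zic1, a dorsal hindbrain factor, took 10.8, 44.0 and 107 CPM and was highest in control 3. Of the neural progenitor list, Vim, an intermediate filament also of mesenchyme, took 951, 726 and 563 CPM and Nes, nestin, 282, 139 and 61.2 CPM, while Fabp7, a radial glia protein, took 0.226, 6.78 and 10.3 CPM. Sox2, Olig3 and Atoh1, which define early hindbrain lineages, were thus at or near 0 in control 1 and at no more than 2.97 CPM in the others. Prrx1 and Twist1, factors of mesenchyme, took 183, 149.9 and 568 CPM and 26.3, 36.4 and 66.7 CPM.

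Lists of other medulloblastoma subgroups had lower sums than the WNT lists, but also fewer genes. The Sonic hedgehog, Group 3 and Group 4 lists held 14, 10 and 12 rows, against 24 and 25 in the WNT lists. Wif1 alone gave 2358, 1916 and 1664 CPM to both WNT lists. The median member had a mean level of 73.6 and 17.0 TPM in the WNT lists, against 8.04, 1.04 and 0.542 TPM. The Sonic hedgehog list summed to 493, 474 and 578 CPM. In it Boc and Smo, a co-receptor and the signal transducer, took 160.0, 131 and 148 CPM and 113, 121 and 97.6 CPM, while Gli1, a target of the pathway, took 0.937, 13.2 and 14.2 CPM. The Group 3 list summed to 12.2, 75.9 and 114 CPM. The Group 4 list summed to 257, 457 and 277 CPM, most of it Lhx9. Gli1, lowest in control 1, followed the order of the neuron and astrocyte genes given above, and its relation to them was not tested.

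Proliferation genes were present throughout, and their sum was highest in control 3. All 20 listed genes had at least 5 CPM, and none differed at least 4-fold, against 13.9% of all genes. Of the 20, 18 were highest in control 3, with sums of 1657, 1966 and 3026 CPM. The share of all genes highest in control 3 was not counted. Over 10498 genes with at least 5 CPM in all 3 libraries, the median log2 ratio was 0.14 for control 3 over control 2. For control 1 over control 3 it was -0.10. Top2a, the topoisomerase of dividing cells, took 379, 454 and 675 CPM and Mki67 211, 346 and 429.7 CPM. Hypoxia and glycolysis genes had sums in the reverse direction, at 4078, 2158 and 2116 CPM. Of 15 with at least 5 CPM, 5 differed at least 4-fold (33.3%, against 13.9% of all genes). In control 1, 11 of the 15 were highest, and the share of all genes highest there was not counted. Vegfa, the vessel growth factor, took 237, 103 and 40.1 CPM and Ndrg1 357, 176 and 75.7 CPM. Endothelial genes summed to 1257, 263 and 205 CPM, but 971 of the 1257 CPM in control 1 came from Abcb1a, a drug efflux pump, which took 971, 35.0 and 24.2 CPM. Of 15 endothelial genes 2 differed at least 4-fold (13.3%, against 13.9% of all genes), and Pecam1, which defines the type, took 13.5, 18.8 and 17.7 CPM.

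Mural cell and fibroblast genes summed to 3670, 4889 and 4157 CPM, but 7 of 13 differed at least 4-fold (53.8%, against 13.9% of all genes). Col1a2 took 32.7, 20.4 and 314 CPM and Col1a1, the other chain of type I collagen, 339, 102 and 280.0 CPM. Acta2, smooth muscle actin, took 127, 141 and 7.80 CPM. The members did not share an order, since Col1a2 and Col3a1 were highest in control 3 and Acta2, Dcn and Postn lowest there. All 14 lymphocyte genes were under 1 CPM in every control, and their sum was 1.84, 2.30 and 3.15 CPM. Haemoglobin and other blood genes summed to 24.0, 132 and 118 CPM. Skeletal muscle genes summed to 32.9, 9.83 and 9.17 CPM.

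**Figure D4:**
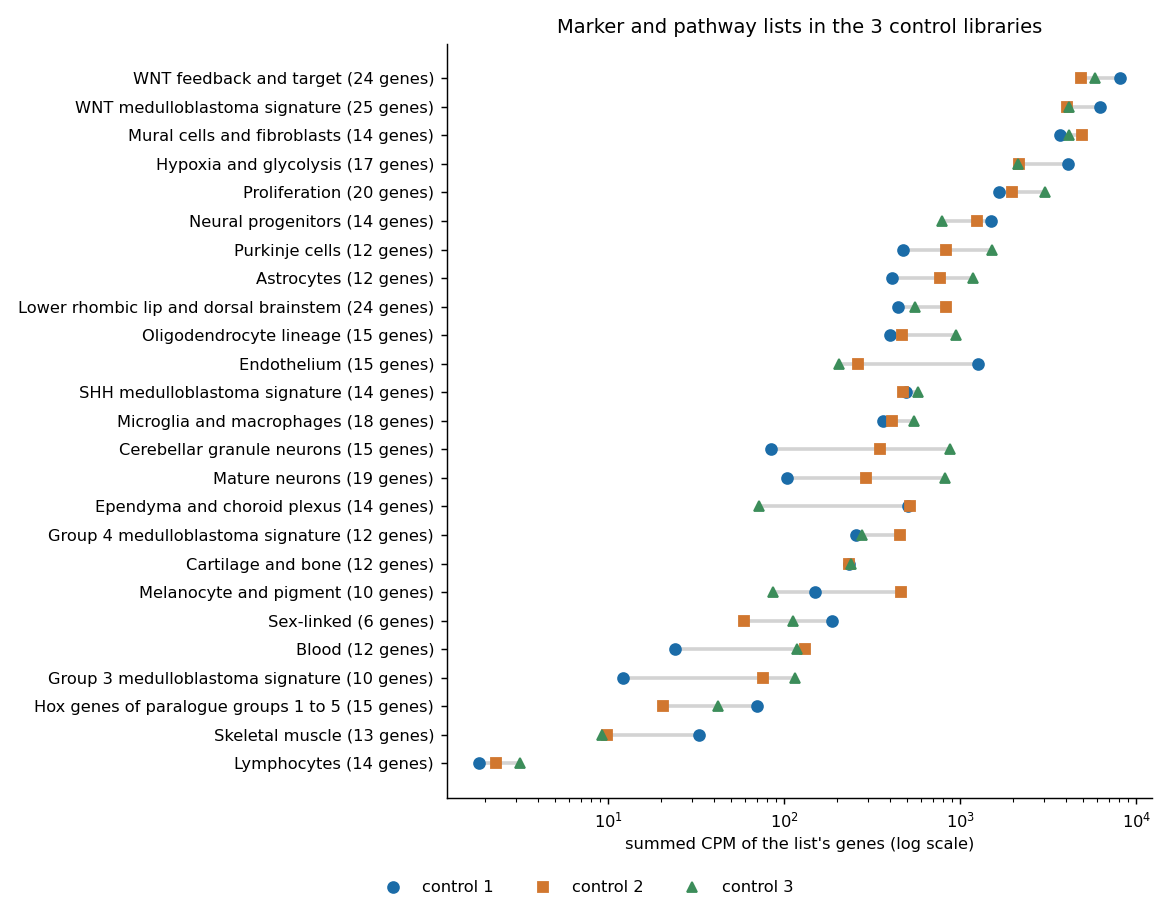
Summed CPM on a log scale of 25 marker and pathway lists in control 1 (blue circles), 2 (orange squares) and 3 (green triangles), ordered by mean, with the number of rows in brackets. WNT lists lie at the top, the sum of the cartilage and bone list is almost even, and that of the mature neuron list spreads from 104 CPM in control 1 to 819 CPM in control 3.

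Of 16 Hox genes with at least 5 CPM, which mark position along the body axis, 10 differed at least 4-fold (62.5%, median fold 8.29). Hoxb9 took 41.2, 20.2 and 17.0 CPM and Hoxb4 20.4, 6.24 and 9.05 CPM. Hoxc5 took 10.9, 0.0717 and 0.336 CPM, nearly all in control 1, whereas Hoxa9 (0.420, 0.574 and 13.5 CPM) and Hoxd13 (0, 0.251 and 13.5 CPM) had theirs in control 3. The share was 21.3% over all transcription factors and 13.9% over all genes. Of 20 SMAD, STAT and IRF genes none differed at least 4-fold.

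Differences between the controls also went with chromosomes. Over 10498 genes with at least 5 CPM in all 3 libraries, assigned to chromosomes by symbol, the median log2 ratio on the X chromosome lay above that of all genes by 0.68 for control 1 over control 2 and by 0.64 for control 1 over control 3, and was near it (0.08) for control 3 over control 2. On chromosome 3 control 1 lay lower by -0.60 against control 2 and by -0.28 against control 3. On chromosome 4 control 3 was low, at -0.49 against control 2, with control 1 over control 3 at 0.44. On chromosome 14 control 3 was low too, at -0.43 against control 2. On chromosome 10 control 1 was low, at -0.46 against control 3 and -0.30 against control 2. Wif1, which lies on chromosome 10, was highest in control 1 all the same. Neighbouring genes are not independent, and these medians carry no test.

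**Figure D5:**
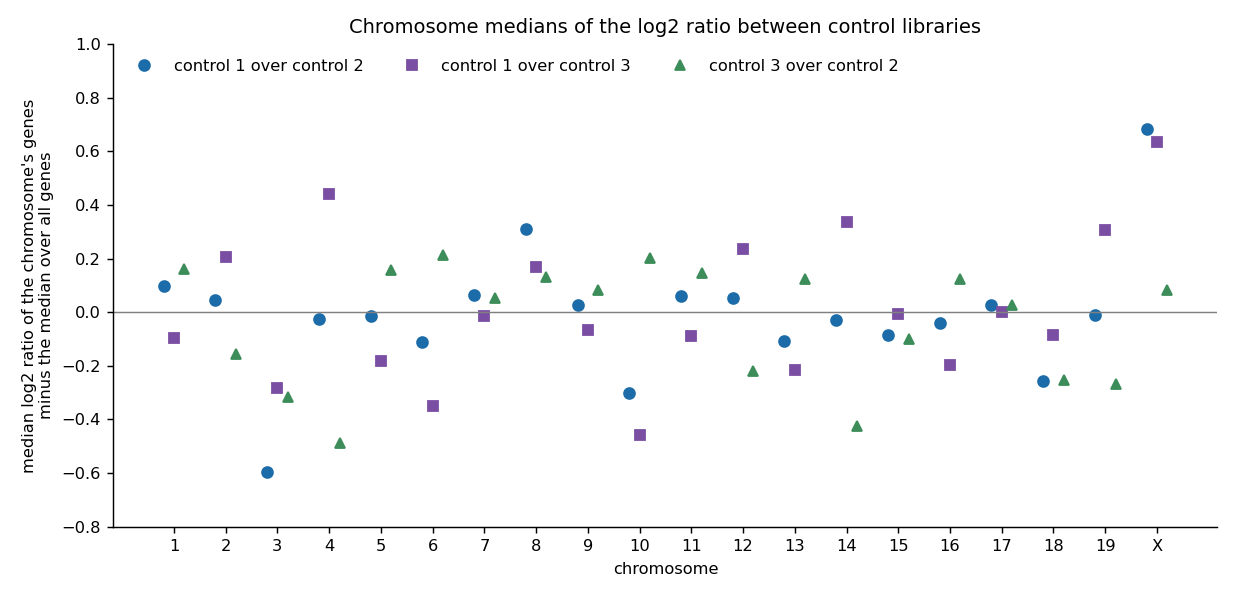
Median log2 ratio of CPM between pairs of control libraries for the genes of each chromosome, minus the median over all 10498 genes (grey line at 0), as blue circles for control 1 over 2, purple squares for control 1 over 3 and green triangles for control 3 over 2. The X chromosome stands at 0.68 and 0.64 for the ratios with control 1, and chromosome 3 at -0.60 for control 1 over 2.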

How the data were processed

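Levels rest on 3 control libraries of total RNA, made with the TruSeq Stranded Total RNA kit per the labels' protocols. The submitters' processing notes name BWA and build mm9. The program, annotation and strand rule of the counting are not stated in the labels. The authors deposited raw read counts per gene symbol. The 5 closing tallies of each table were kept out, and CPM was computed from the total over the 34591 gene rows. TPM used exon lengths of GENCODE release M21, which belongs to a later build, for 31488 rows matched by symbol. Counts of genes that overlap, lie antisense to each other or have near-identical copies, such as the haemoglobin genes, are uncertain, since the counting rule is unknown.

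No test was made, since the 3 controls form 1 group with nothing to compare. Genes were called high by a rank of 1000 or better in all 3, and differing by a fold of 4 or more with at least 5 CPM in the highest. Named genes are the 3 markers, the 15 nuclear, transcription factor and secreted genes of best poorest rank, the 10 most even high genes, for each library the 6 highest and 6 lowest in it alone with at least 20 CPM in the highest library, the 6 most variable transcription factors and secreted genes, and up to 6 members of each list. Mitochondrial, haemoglobin, ribosomal RNA and small RNA rows and gene models without a symbol were left out of the genes that set 1 library apart. A few genes that the rule names are left unreported. Other members of a described list or family, and the further genes of wide range, were named after their values were seen. The 25 gene lists and the classes of transcription factors and secreted proteins (by gene name) were chosen with earlier results of these data known. edgeR 4.0.16 and DESeq2 1.42.0 in R 4.3.3 gave the scaling alternatives only, and the rest was computed in Python 3.11.15. The counting of ranks and folds was tested on simulated data. Alternatives were length scaling, other normalizations and filters, leaving out technical rows or a library, and, added after seeing the data, leaving out 15 Gm-numbered rows and the shares per class without each library.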

Additional observations from a re-analysis of the deposited data

How the results depend on the processing

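The number of genes high in all 3 controls (625) was within 1.5 times under every alternative run: 702 per length, 627 without technical rows (mitochondrial, haemoglobin, ribosomal RNA and small RNA), and 699 to 775 with 1 library left out, where only 2 ranks must pass. The 14 high transcription factors became 6 per length, and 16 to 19 with 1 library left out. The 25 high secreted protein genes became 19 per length, 26 without technical rows, and 27 to 43 with 1 library left out, the highest without control 3. The 1775 genes that differed at least 4-fold became 1780 with TMM factors, 1775 with DESeq2 size factors, 1823 without technical rows and 1792 without the 15 Gm-numbered rows. They became 3759 with no filter on low values, 2834 at 1 CPM or more in the highest library and 943 at 20 CPM or more, since the filter sets how many genes are counted. With 1 library left out they were 663 to 1405, with 663 without control 1 and 735 without control 3, where 2 libraries give a smaller range than 3. Mean CPM of the 203 named genes moved by less than 1 SD under TMM factors, and under DESeq2 size factors for 202 of them, the exception being Lef1, whose SD was 0.331 CPM. Left-out libraries moved the means of many named genes by over 1.5 times: 34 without control 1, 13 without control 2 and 51 without control 3. Abcb1a, for example, went from a mean of 343 CPM to 29.6 CPM without control 1. TMM and DESeq2 scaling moved log2 levels of a library by at most 0.09. No paired analysis was possible because a single group was described and nothing was compared between groups. Levels near 0.1 CPM rest on about 3 counts, so that folds against them are limited by depth.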
